A study of Mus musculus with 6 samples.

Results

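Purkinje cell genes are 28 genes used as markers of, or strongly expressed in, the Purkinje cells of the cerebellum. They were taken as every non-control probe whose gene name in the scanner files is 1 of the 28, which gave 63 probes of 56605 and all 28 genes of 37009. RNA came from a brainstem and cerebellum dissection of mice aged 16 weeks. There were 3 samples labelled MSA transgenic (MSA Tg) and 3 labelled wild type (WT), each on 1 single-colour (Cy3) array. The series design sets MSA Tg brain against WT brain. Both genotypes carry the same mixed strain label, C57BL/6, 129 and C3H. The labels do not spell out MSA, and they name neither the transgene nor the promoter or cell type that drives it. They give no sex, and they do not say that the samples are separate animals, so p-values speak only of the spread among these samples, which may be technical.

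Purkinje cells are the large inhibitory neurons whose axons are the output of the cerebellar cortex. Granule cells reach them through parallel fibres, glutamate acts there on the metabotropic receptor mGluR1, and the receptor's G proteins switch on a phospholipase C that makes inositol trisphosphate (IP3). IP3 opens a calcium channel of the endoplasmic reticulum that these cells hold in unusual amounts, and calcium buffers, store proteins and cGMP signalling shape what follows. Mutations in several of these genes, Car8, Itpr1 and Rora among them, give ataxia in mice.

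All 28 genes were well above background on all 6 arrays by the probe kept for each (of a gene's tested probes, the brightest on average), the defining markers Pcp2, Calb1 and Car8 among them. Levels are log2 signals relative to the 75th percentile of the same array, and differences are MSA Tg minus WT on that log2 scale. Of the 63 probes, 59 were tested. The other 4, which were 1 for Ryr1, 1 for Foxp2 and 2 for Prkg1, failed the test for signal well above background on all 6 arrays. In bulk tissue, fewer cells of a type and less RNA per cell cannot be told apart.

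None of the 28 genes passed the test. With limma and Benjamini-Hochberg adjustment over 24933 genes, 0 of 28 were called at an adjusted p of 0.05, where 0.0441% of all tested genes were called and 0.00802% were called lower, and the members' adjusted p ran from 0.817 to 0.978. At an unadjusted p under 0.05 there were 2, Casq2 and Inpp5a, both lower in MSA Tg samples, against 5.86% of all genes in either direction and 2.71% lower. The difference was below 0 for 24 of 28 genes, where 50.1% of all genes lay below 0, and above 0 for Pcp4, Ryr1, Rgs8 and Foxp2, of which Pcp4 and Rgs8 turned negative with median scaling and Foxp2 with normexp background correction. The median was -0.14 (0.908-fold), against -0.00045 over all genes, and single genes ran from -0.41 for Skor2 to 0.37 for Foxp2. Every MSA Tg value lay below every WT value for 8 genes, where 7.5% of all genes did so, and in none did every MSA Tg value lie above.

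The intervals rest on the spread among these samples, which may be technical, so they limit a difference only between these samples. The 95% interval of the difference left out a 2-fold change in both directions for 26 of 28 genes, the exceptions being Car8 and Foxp2, and lay wholly within 0.5 log2 units of 0 for 23. The SE of a difference ranged from 0.078 to 0.36 over the genes, with a median of 0.10. A p above the threshold does not show that the genotypes were alike at these sizes.

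**Figure D1:**
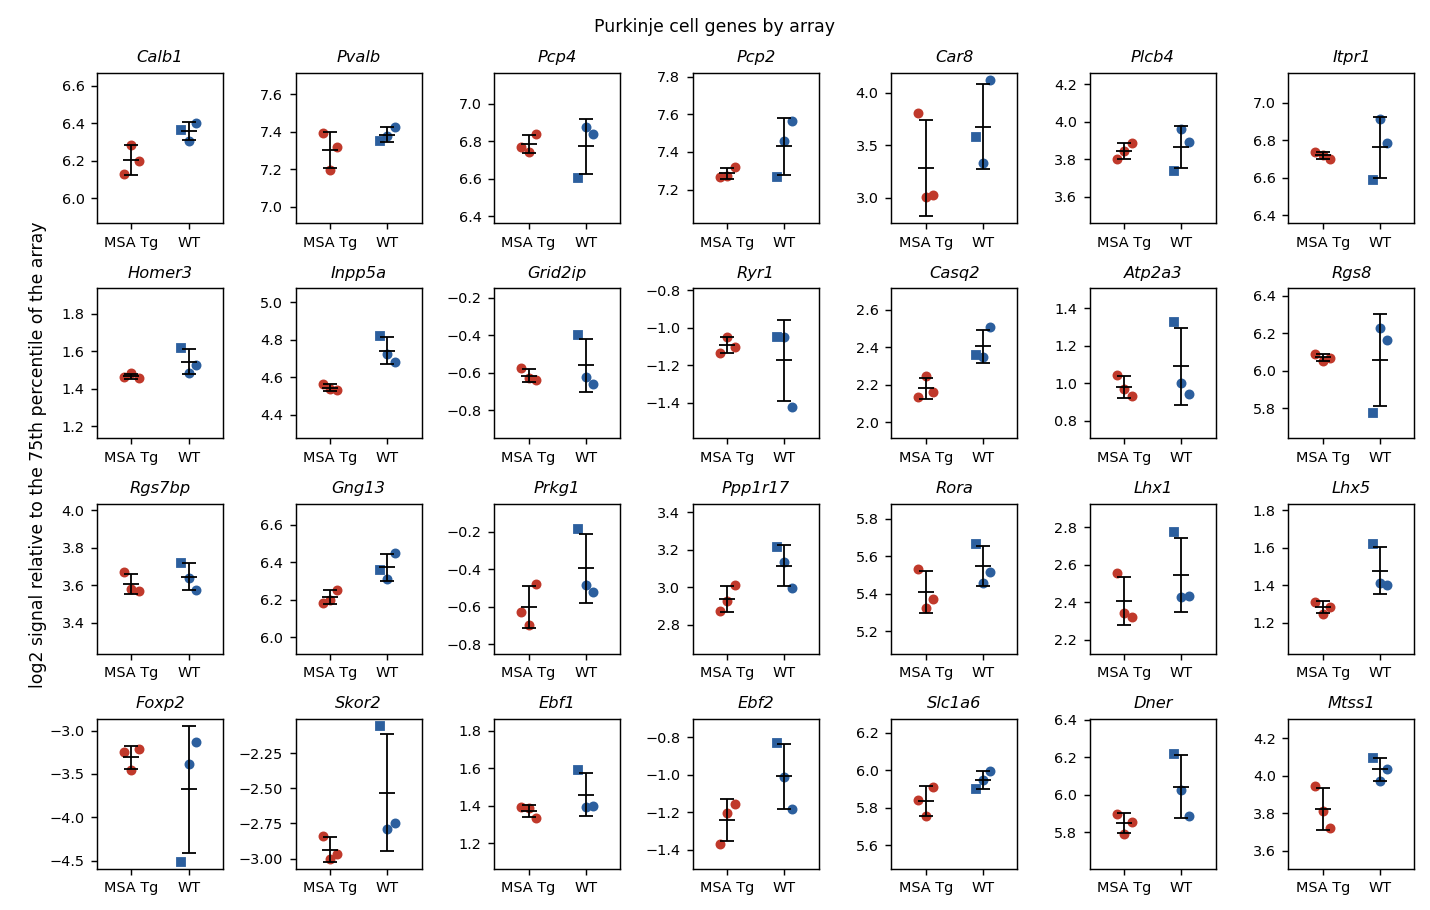
Level of each of the 28 genes on each array (y axis, log2 signal relative to the array's 75th percentile, its span differing by panel) for MSA Tg (red, left) and WT (blue, right). Each point is 1 array, the square is WT replicate 1, and the bar is the mean ± SD of 3. In 8 panels, Calb1, Homer3, Inpp5a, Casq2, Gng13, Lhx5, Skor2 and Mtss1, the red points all lie below the blue ones.

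The arrays themselves were not all alike. WT replicate 1 had slide 1 to itself, while slide 2 held the remaining 5 arrays. The 75th percentile of its signal was 405.7 intensity units, against 591.9 to 609.2 on the MSA Tg arrays and 535.0 to 562.4 on the other WT arrays, and it correlated at 0.974 to 0.978 with the rest, where arrays of slide 2 reached at least 0.991 with each other. Of the 28 genes, 15 had their highest value on WT replicate 1, as did 32.7% of all genes. The highest array was an MSA Tg one for 1 of the 28, Ryr1, against 40.5% of all genes, and the lowest was an MSA Tg array for 21, against 42.6%.

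Within slide 2, with 3 MSA Tg and 2 WT arrays, 25 of the 28 genes were below 0, against 52.8% of all genes, with a median of -0.12, against -0.0094. None was called there (0.0281% of all genes were), and the adjusted p ran from 0.514 to 0.997. Pcp2 and Casq2, both lower in MSA Tg samples, had an unadjusted limma p under 0.05, as did 4.56% of all genes in that direction. Grid2ip, Ryr1 and Atp2a3 were above 0. Array by array, the median of the 28 genes relative to their WT means was -0.074, -0.17 and -0.12 in the MSA Tg samples, against 0.074, -0.036 and -0.024 in the WT samples. All 3 MSA Tg arrays thus lay below the 3 WT arrays, and MSA Tg replicate 1 was the nearest to them.

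**Figure D2:**
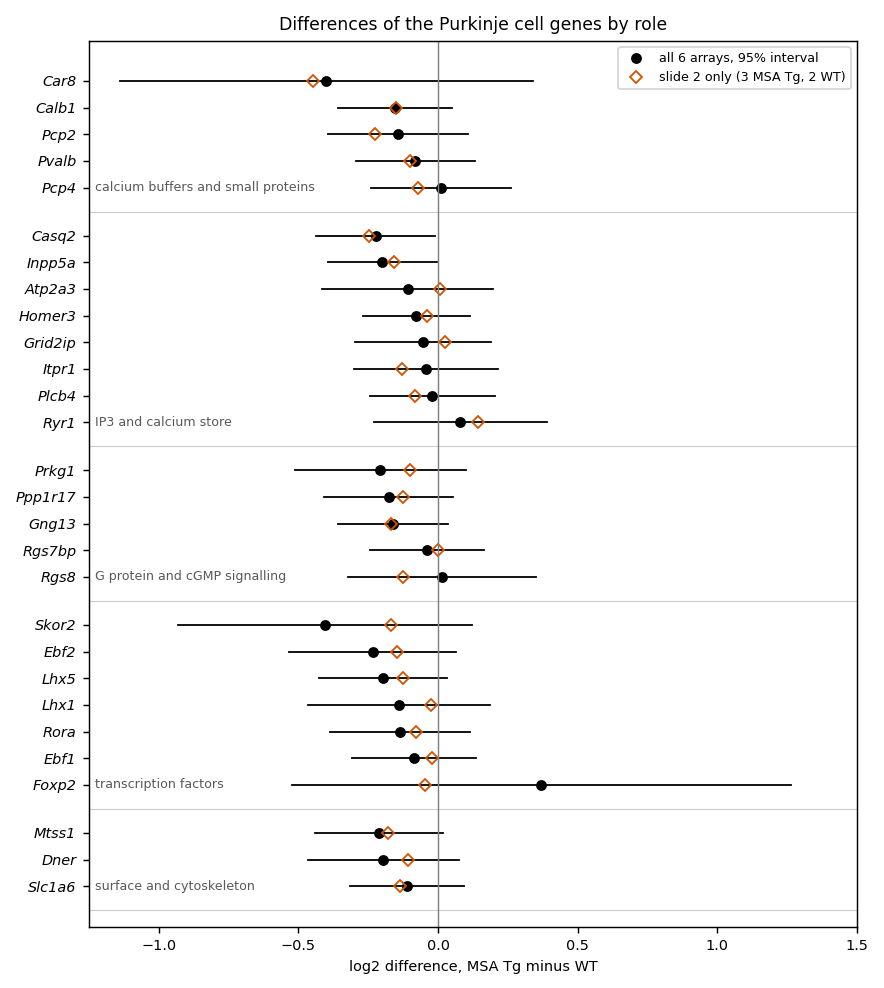
Difference of each gene (x axis, log2, MSA Tg minus WT), grouped by role. Filled circles use all 6 arrays with their 95% interval, and open diamonds use the 5 arrays of slide 2. For 24 of 28 genes the circle lies left of 0, Car8 and Foxp2 have the widest intervals, and the diamonds of Pcp4, Rgs8 and Foxp2 lie on the other side of 0 from their circles, as do those of Grid2ip and Atp2a3.

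The signal rests on 60-base probes. Shown here are 4 with at least 1 open reading frame over their whole length (whether they lie in coding exons was not checked against an annotation), because the results below turn on them or on how they differ from a gene's other probes. Positions are on mm9, the build of the file headers, on the plus strand. The Gng13 probe (chr17:25855911-25855970) is that gene's kept probe, the Itpr1 probes (chr6:108390577-108390636 and, split over a span longer than the probe, chr6:108187033-108191269) gave larger differences than the kept Itpr1 probe, and the Grid2ip probe (chr5:144152845-144153095, also split) took the opposite sign to the kept probe.
Gng13: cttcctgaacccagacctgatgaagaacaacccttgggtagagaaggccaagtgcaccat
Itpr1, contiguous: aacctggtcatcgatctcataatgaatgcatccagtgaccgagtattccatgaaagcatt
Itpr1, split: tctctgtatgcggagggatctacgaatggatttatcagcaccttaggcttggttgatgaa
Grid2ip: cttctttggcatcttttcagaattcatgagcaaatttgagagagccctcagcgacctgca

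Rora, a member of the list, encodes the nuclear receptor that binds DNA at an AGGTCA core preceded by A and T bases. RefSeq promoter windows (250 bases before to 50 after a start, GRCm38.p6) were available for 19 of the 28 genes, with 31 windows. The letters AGGTCA, on either strand, stood in at least 1 window of 5 of the 19 genes (26.32%), namely Dner, Homer3, Pcp2, Pcp4 and Rgs8, against 18.13% of 27025 genes with a window. By window the shares were 22.58% of the 31 windows and 16.26% of 32851, where windows of a gene can overlap. Of the 7 member windows with a match 3 were Pcp2's, and a pair of those share the same site. The longer TAGGTCA, which contains the shorter motif, was in 0 of the 31 windows and in 2.61% of all. A match is only a match of letters. The 5 genes with a match had a median difference of -0.078 and those without had a median of -0.11. The windows of 3 genes are shown for the positions of the match, with AGGTCA or its reverse complement in capitals, each read 5′ to 3′ along its gene. They are Pcp2 (chr8:3625498-3625797, minus strand), Pcp4 (chr16:96467356-96467655, plus strand) and Dner (chr1:84696172-84696471, minus strand, with 2 matches).
Pcp2: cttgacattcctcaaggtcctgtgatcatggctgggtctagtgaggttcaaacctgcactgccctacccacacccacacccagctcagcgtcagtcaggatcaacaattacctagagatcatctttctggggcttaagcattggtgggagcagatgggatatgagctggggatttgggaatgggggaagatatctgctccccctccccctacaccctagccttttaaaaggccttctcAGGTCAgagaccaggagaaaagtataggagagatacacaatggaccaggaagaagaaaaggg
Pcp4: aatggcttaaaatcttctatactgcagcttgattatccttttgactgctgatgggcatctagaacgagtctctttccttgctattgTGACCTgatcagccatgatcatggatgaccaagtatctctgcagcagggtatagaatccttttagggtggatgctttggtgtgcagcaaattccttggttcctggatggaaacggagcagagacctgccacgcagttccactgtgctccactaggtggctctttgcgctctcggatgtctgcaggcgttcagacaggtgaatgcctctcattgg
Dner: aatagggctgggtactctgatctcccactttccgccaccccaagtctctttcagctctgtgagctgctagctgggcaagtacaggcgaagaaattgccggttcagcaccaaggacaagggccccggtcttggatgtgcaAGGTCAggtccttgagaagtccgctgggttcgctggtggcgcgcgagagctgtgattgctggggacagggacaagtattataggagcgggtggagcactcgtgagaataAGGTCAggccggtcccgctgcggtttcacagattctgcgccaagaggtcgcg

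Among the calcium buffers and small proteins, 4 of 5 genes were below 0, with a median of -0.15. Calb1 encodes calbindin, the fast calcium buffer that serves as the standard marker of these cells. Its level was 6.13, 6.29 and 6.20 in MSA Tg samples, against 6.37, 6.31 and 6.40 in WT samples. The groups did not overlap, but the gap between them was narrow, 1 MSA Tg sample lying just under the lowest WT value. The difference was -0.15 ± 0.083 (SE, n = 3 per genotype, as for all differences here), with a limma adjusted p of 0.817. Pvalb encodes parvalbumin, a slower calcium buffer that cerebellar interneurons also make. It stood at 7.39, 7.20 and 7.32 in MSA Tg samples, against 7.35, 7.38 and 7.43 in WT samples, so that only the second MSA Tg sample was clearly lower, with a difference of -0.082 ± 0.087.

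Pcp2, also called L7, binds inhibitory G protein alpha subunits and is made almost only by Purkinje cells and retinal bipolar cells. Its level was 7.27, 7.27 and 7.32 in MSA Tg samples, against 7.27, 7.46 and 7.57 in WT samples. The MSA Tg values were tight, and WT replicate 1, the array of slide 1, sat among them while the other WT samples were higher. The difference was -0.15 ± 0.10 over all arrays and -0.23 ± 0.073 within slide 2, with limma adjusted p of 0.817 and 0.514. Pcp4, a small protein that speeds calcium exchange on calmodulin, is shared with other brain neurons. It had levels of 6.77, 6.74 and 6.84 in MSA Tg samples, against 6.60, 6.87 and 6.84 in WT samples, with full overlap. Its difference was 0.011 ± 0.10 over all arrays and -0.073 without WT replicate 1, its lowest sample, so its sign changes with that array.

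Car8, a carbonic anhydrase-like protein without enzyme activity that binds the IP3 receptor, was the most variable of the 5. It stood at 3.81, 3.004 and 3.02 in MSA Tg samples, against 3.58, 3.33 and 4.12 in WT samples. The first MSA Tg sample lay within the WT range and the other MSA Tg samples lay below it. The kept probe gave -0.40 ± 0.30 with an interval from -1.14 to 0.34, and a fold of 0.758. It ran from -0.66 without MSA Tg replicate 1 to -0.18 without WT replicate 3. The gene's other probe gave -0.47, with the same MSA Tg sample highest in its group.

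The group of the IP3 pathway and the calcium store, in which the receptor scaffold gene Grid2ip was also placed, held 8 genes. Of these 7 were below 0, with a median of -0.066, the smallest in size of the 5 roles. Itpr1 encodes the IP3 receptor itself, the calcium release channel. Its level was 6.73, 6.72 and 6.70 in MSA Tg samples, against 6.59, 6.91 and 6.79 in WT samples. The MSA Tg values lay close together and inside the WT range, and the difference was -0.043 ± 0.10, or 0.031 without WT replicate 2. The 3 other Itpr1 probes, both of those printed above among them, gave -0.30, -0.22 and -0.19, none called. The printed pair read highest on WT replicate 1, where the kept probe read lowest. Against WT replicates 2 and 3 alone the kept probe gave -0.13, and the 3 other probes had a median of -0.16. Plcb4, a phospholipase C that makes IP3 in these cells, had -0.020, which was 0.0078 with quantile normalization and 0.0077 in the authors' deposited table. Its 7 other tested probes ran from -0.29 to -0.10.

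Inpp5a encodes the phosphatase that removes a phosphate from IP3 and so ends its signal, and loss of the gene gives Purkinje cell degeneration in mice. It stood at 4.56, 4.54 and 4.53 in MSA Tg samples, against 4.82, 4.72 and 4.68 in WT samples. Every MSA Tg value lay below every WT value, and the MSA Tg values were tight, with WT replicate 1 the highest. The difference was -0.20 ± 0.079 with an unadjusted p of 0.046 and a limma adjusted p of 0.817, and -0.16 within slide 2. Homer3, the scaffold that ties mGluR1 to the IP3 receptor, was also separate at -0.078 ± 0.078, with levels of 1.45 to 1.48 in MSA Tg samples and 1.49 to 1.62 in WT samples. Its second probe gave -0.056, so both were on the same side of 0.

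Casq2, the calsequestrin known from heart muscle, stores calcium in the endoplasmic reticulum of Purkinje cells. Its level was 2.13, 2.25 and 2.16 in MSA Tg samples, against 2.36, 2.35 and 2.51 in WT samples. Here too the groups were separate, and WT replicate 1 was not the highest. Its difference of -0.22 ± 0.087 had the smallest p of the 28 genes (0.043 unadjusted, limma adjusted p of 0.817), with an interval from -0.44 to -0.011, and was -0.25 within slide 2. Atp2a3, a pump that refills the store, had -0.11 ± 0.12, which came to 0.0083 without WT replicate 1. Ryr1, the ryanodine receptor that Purkinje cells share with skeletal muscle, had 0.080 ± 0.13, which came to -0.043 without WT replicate 3. Grid2ip, which encodes delphilin, a scaffold on the delta glutamate receptor, had -0.055 ± 0.10, which came to 0.026 without WT replicate 1.

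Of the 5 G protein and cGMP genes, 4 were below 0, with a median of -0.16. Gng13, a G protein gamma subunit that other sensory and brain cells also make, had levels of 6.18, 6.20 and 6.26 in MSA Tg samples, against 6.36, 6.31 and 6.45 in WT samples. A small gap separated the groups, and the difference was -0.16 ± 0.080 (limma adjusted p of 0.817) and -0.17 within slide 2. Rgs8, which speeds the turning off of G proteins, had a difference of 0.014 ± 0.14 that was -0.030 with median scaling and -0.13 without WT replicate 1. Rgs7bp, the membrane anchor of a related group of regulators, had -0.039 ± 0.083, or -0.0018 without WT replicate 1. Prkg1, the cGMP-dependent kinase, had -0.21 ± 0.12, or -0.10 without WT replicate 1. Its substrate Ppp1r17, a phosphatase inhibitor found in Purkinje cells, had -0.18 ± 0.094.

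The transcription factors numbered 7, with 6 below 0 and a median of -0.14. Rora, whose loss stops Purkinje cells from maturing in the staggerer mouse, had levels of 5.54, 5.32 and 5.37 in MSA Tg samples, against 5.67, 5.46 and 5.52 in WT samples. The groups overlapped through the first MSA Tg sample, which stood above 2 WT samples. Its difference was -0.14 ± 0.10, with a limma adjusted p of 0.817. Lhx5, a LIM homeodomain factor of early Purkinje cells, stood at 1.31, 1.25 and 1.28 in MSA Tg samples, against 1.62, 1.41 and 1.40 in WT samples. The groups were separate, with WT replicate 1 well above the rest, and the difference was -0.20 ± 0.093, or -0.12 within slide 2. Its relative Lhx1 had -0.14 ± 0.13, with levels of 2.32 to 2.55 in MSA Tg samples and 2.43 to 2.77 in WT samples, and -0.026 without WT replicate 1.

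Ebf2, a helix-loop-helix factor that helps to set which Purkinje cells form stripes, had levels of -1.37, -1.20 and -1.16 in MSA Tg samples, against -0.83, -1.01 and -1.18 in WT samples. The lowest WT sample fell among the MSA Tg values, and the difference was -0.23 ± 0.12. Its relative Ebf1 had -0.087 ± 0.090, or -0.021 without WT replicate 1. Skor2, a corepressor needed for Purkinje cell differentiation, had the lowest difference, -0.41 ± 0.21. Its levels were -2.84, -3.003 and -2.97 in MSA Tg samples, against -2.05, -2.79 and -2.75 in WT samples, so WT replicate 1 stood far from the rest and the difference was -0.17 without it. Foxp2, a forkhead factor, had the highest, 0.37 ± 0.36. WT replicate 1 was its lowest sample at -4.51, against -3.46 to -3.21 in MSA Tg samples and -3.38 and -3.13 in the other WT samples, and without that array the difference was -0.048. The lowest and the highest value of the 28 genes therefore both rested on 1 array.

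All 3 genes of the surface and cytoskeleton were below 0, with a median of -0.20. Slc1a6 encodes EAAT4, the glutamate transporter on Purkinje cell spines. It stood at 5.84, 5.75 and 5.91 in MSA Tg samples, against 5.90, 5.95 and 5.99 in WT samples. The groups overlapped only in that the highest MSA Tg sample passed the lowest WT sample, and the difference was -0.11 ± 0.083 with a limma adjusted p of 0.817. Mtss1, which bends membranes and organises actin in dendritic spines, had levels of 3.94, 3.81 and 3.72 in MSA Tg samples, against 4.09, 3.97 and 4.04 in WT samples. All MSA Tg values were below the WT values, at -0.21 ± 0.093 over all arrays and -0.18 within slide 2. Dner, a transmembrane protein that signals to Bergmann glia through Notch, had -0.20 ± 0.11, with its levels in MSA Tg samples at 5.79 to 5.90 and in WT samples at 5.89 to 6.22.

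Of the 28 genes, 17 had more than 1 tested probe, with 31 probes beside those kept. Over all 59 tested probes, 48 were below 0, against 51.9% of all tested probes, with a median of -0.15, against -0.0084. No probe was called (0.0286% of all were). These probe values come from a separate limma fit over 38463 probes, whose shared spread estimate differs from that of the gene fit, so the kept probes of Casq2 and Inpp5a had an unadjusted p of 0.0502 and 0.0569 there. In the probe fit the only probe with an unadjusted p under 0.05, as 5.59% of all tested probes had, was a second Calb1 probe (chr4:15835078-15835137, mm9). It read 4.07, 4.03 and 4.03 in MSA Tg samples, against 4.51, 4.36 and 4.25 in WT samples. The groups were separate, and at -0.33 ± 0.10 its difference was larger than that of the kept probe (p of 0.016, limma adjusted p of 0.751). Another Calb1 probe, between those positions, gave 0.038 ± 0.12, so the 3 probes of calbindin differed in sign.

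Such a split among a gene's probes was seen for 7 of the 17 genes. The share over all genes with several tested probes was not counted. Grid2ip had the only tested member probe with every MSA Tg value above every WT value. For 13 of the 59 tested probes every MSA Tg value lay below every WT value. The shares over all tested probes were not counted, so neither count can be set against all probes. Over all tested genes, with 1 probe each, 7.5% lay below in this way and 14.9% did not overlap in either direction. The Grid2ip probe, printed above, read -2.59, -2.79 and -2.76 in MSA Tg samples, against -2.90, -2.88 and -2.87 in WT samples. The difference was 0.17 ± 0.093, where the kept probe gave -0.055. For Rora the kept probe and a second probe gave -0.14 and -0.24, and another, at a distant position (chr9:68511835-68511894, mm9), gave 0.33 ± 0.28. That distant probe was much dimmer. Its mean levels were -3.74 in MSA Tg samples and -4.07 in WT samples, against 5.41 and 5.55 for the kept probe. Rgs8 had 0.014 and -0.12, and Ebf1 had -0.087, 0.045 and -0.10. Dner had -0.20 and 0.11 ± 0.25, and Mtss1 had -0.21, -0.14 and 0.00040 ± 0.097. The second Dner probe was also much dimmer than the kept one, with mean levels of -3.16 in MSA Tg samples and -3.27 in WT samples. Ryr1 had a second probe at 0.88 ± 0.52, for which WT replicate 1 read -4.30, against -2.46 to -1.91 in MSA Tg samples and -2.50 and -2.41 in the other WT samples.

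**Figure D3:**
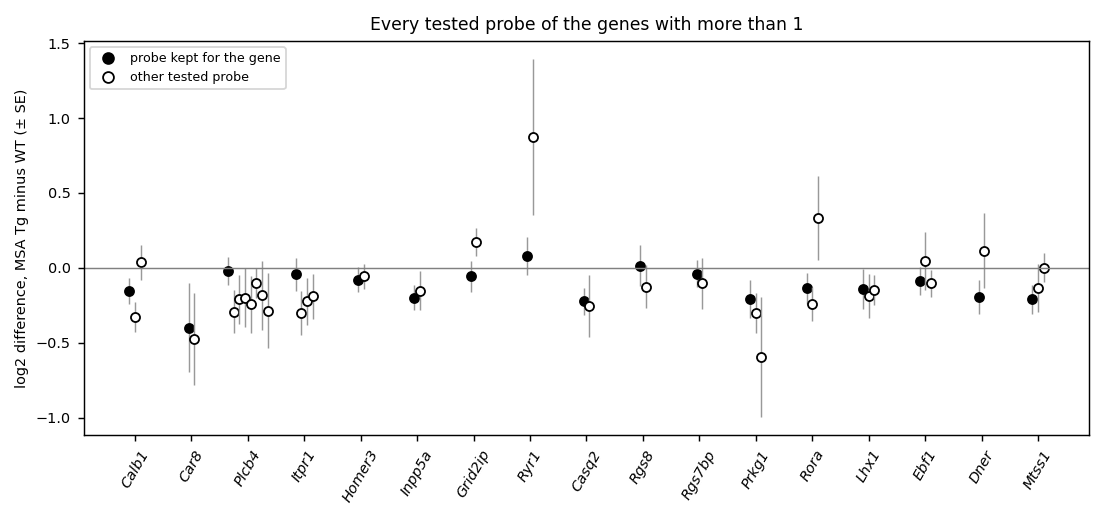
Difference of every tested probe (y axis, log2, MSA Tg minus WT, ± SE) for the 17 genes with more than 1. Filled circles are the probes kept for the gene and open circles the others. In 7 genes, Calb1, Grid2ip, Rgs8, Rora, Ebf1, Dner and Mtss1, circles lie on both sides of 0, and the Ryr1 probe at 0.88 stands alone.

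Lists of other genes made in these cells, though not all of them only there, had medians nearer to 0. The difference between lists was not tested. Of 19 tested genes of mGluR1 signalling and the parallel fibre synapse, 10 were below 0, with a median of -0.013 over all arrays and 0.013 within slide 2. Those with the smallest p were Gnaq and Gna11, the G protein subunits that couple mGluR1 to phospholipase C, at 0.20 and 0.15, and Camk4, a calcium-dependent kinase, at -0.18. Ion channels and pumps had 10 of 12 below 0 and a median of -0.091, or 7 of 12 and -0.038 within slide 2. Fgf14, which places sodium channels at the axon start, had -0.41, and Kcnma1, the large calcium-activated potassium channel, had -0.16. None of these genes was called.

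Genes that mark Purkinje cell stripes had 3 of 6 below 0 and a median of 0.0074 (0.018 within slide 2), with Gabbr2 at -0.22, Kctd12 at 0.068 and Plcb3 at 0.033. Among 14 further genes listed for these cells 9 were below 0, with a median of -0.034 (7 and -0.0043 within slide 2). Some of these genes are also made by other neurons of the dissection. There Syt2, a calcium sensor for release, had -0.30, Arhgef33 had -0.23 and Kitl, the ligand of the receptor on neighbouring interneurons, had -0.10. Genes linked to ataxia, 7 of 20 of which also stand on the lists above, had 17 of 20 below 0 and a median of -0.081. Within slide 2 these genes had 12 of 20 below 0 and a median of -0.015. Their smallest p values belonged to Fgf14, then to the potassium channel gene Kcnd3 at -0.16 and Atxn7 at 0.12. No gene of these lists was called.

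Markers of the other cell types in the dissection were read beside the 28 genes, and their part in the result was not tested. Granule cell markers, from the neurons that give rise to the parallel fibres, had 12 of 13 below 0, a median of -0.17 (10 of 13 and -0.11 within slide 2), and a mean level of 3.31 to 3.56 in MSA Tg samples and 3.46 to 3.62 in WT samples. Zic2 had 0.51 and Cbln1, the bridge of the parallel fibre synapse, had -0.23. Cerebellar interneuron markers had 6 of 10 below 0 with a median of -0.058, which turned to 3 of 10 and 0.022 within slide 2, led by Sorcs3 at 0.25 and Pax2 at -0.23, and mean levels of 0.55 to 0.72 in MSA Tg samples and 0.58 to 0.77 in WT samples. Bergmann glia markers had 4 of 7 below 0 with a median of -0.036 (-0.037 within slide 2), led by Gja1 at 0.28 and Timp4 at -0.10, and mean levels of 3.35 to 3.40 in MSA Tg samples and 3.32 to 3.44 in WT samples. The mean level of the 28 Purkinje cell genes was 3.02 to 3.09 in MSA Tg samples and 3.16 to 3.20 in WT samples, so that their ranges did not meet. For these 3 lists the ranges overlapped. For the ataxia-linked list they also did not meet, at 1.92 to 1.94 in MSA Tg samples and 1.97 to 2.14 in WT samples. The ranges of the microglia, mature oligodendrocyte and forebrain neuron lists, given below, did not meet either.

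Larger differences stood outside the neurons of the cerebellar cortex. Microglia markers had 10 of 10 above 0 with a median of 0.69. Within slide 2 the median was 0.685, and 1 of 10 was below 0. Their mean levels were 0.51 to 0.77 in MSA Tg samples and -0.58 to -0.47 in WT samples. Clec7a and Itgax, of activated microglia, rose by 3.32 and 3.76 (limma adjusted p of 0.016 and 0.022). Itgax was well above background on 3 of 3 MSA Tg arrays and on 1 of 3 WT arrays, so the size of its rise is uncertain. Mature oligodendrocyte markers had 9 of 10 below 0 with a median of -0.36 (9 of 10 and -0.41 within slide 2). Their mean levels were 3.17 to 3.22 in MSA Tg samples and 3.61 to 3.78 in WT samples. Of these Klk6, an oligodendrocyte protease, fell by 2.06 (limma adjusted p of 0.016), and Fa2h, of myelin lipid synthesis, had -0.88 and was not called. Markers of the cerebellar nuclei and brainstem had 9 of 12 below 0 and a median of -0.20 (7 of 12 and -0.19 within slide 2). Their mean levels were -0.36 to 0.25 in MSA Tg samples and 0.19 to 0.33 in WT samples.

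**Figure D4:**
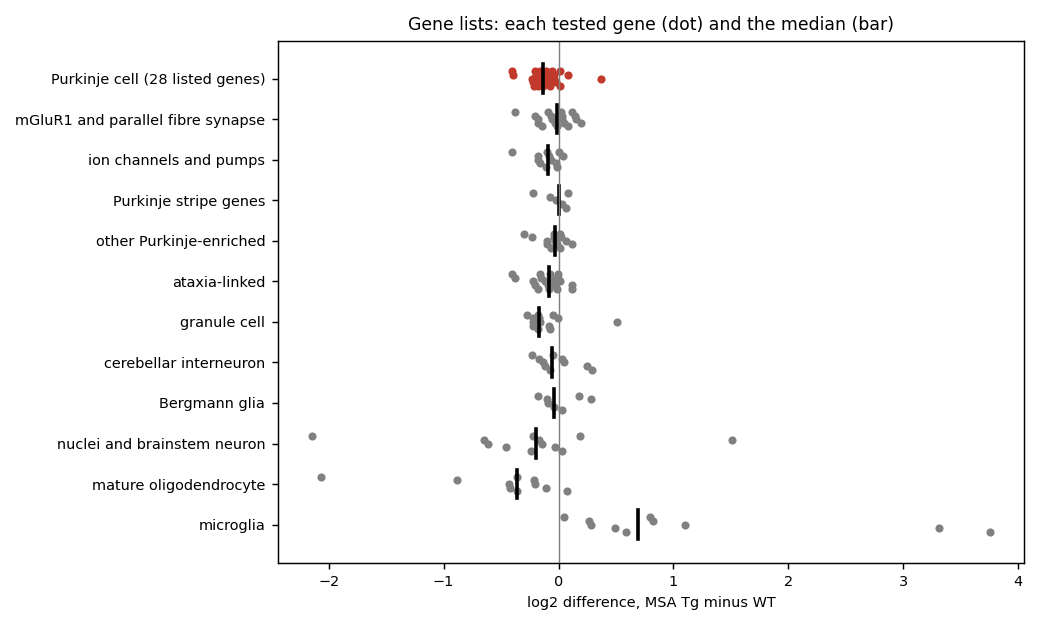
Difference (x axis, log2, MSA Tg minus WT) of each tested gene of the 28 Purkinje cell genes (red, top) and of the other lists (grey), with each list's median as a bar. The red points lie between -0.41 and 0.37 with a median of -0.14, while the microglia bar stands at 0.69 and the oligodendrocyte bar at -0.36.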

How the data were processed

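Total RNA from 3 MSA Tg and 3 WT samples was labelled with Cy3, 1 array each. Per the file headers, arrays were read with Agilent Feature Extraction 10.7.1.1 under protocol GE1_107_Sep09 on build mm9 (the submitters' processing notes give 9.5.1.1). The deposited spot values are linear-scale intensity after the background subtraction that the file headers record. The authors' deposited value table, also intensity values, served only as an alternative. It has a median of 59.9 in each column, no centring, and at least 99.9% of its values within 0.01 log2 of a quantile normalization of the scanner signals.

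For each array, log2 of the processed signal minus log2 of the array's 75th percentile was taken. Left out were control spots and, per array, 39 to 84 spots marked as outliers, none of them on a probe of the 28 genes. No spot was saturated. Spots of a probe were averaged. A probe was tested if all 3 arrays of either genotype showed it well above background (69.4% to 71.7% of probes on MSA Tg arrays and 64.8% to 70.4% on WT arrays), and each gene kept its tested probe of highest mean level. Genes kept the files' names, and 1 further probe carries a member's name, Rgs7bp, only through the RefSeq table. All 24933 genes were fitted with limma 3.58.1 in R 4.3.3 (lmFit, eBayes, 2-sided, Benjamini-Hochberg) with 3 arrays per genotype, and called at an adjusted p of 0.05. Only the limma fit and the adjustment were run on simulated data, with planted changes larger than the difference of any of the 28 genes. Reading, filtering, scaling, choice of probes and the slides were not part of that run.

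The members and the lists were chosen with earlier results of these data known. The text names all 28 genes. Values in every sample are given for Pcp2, Calb1, Car8, Pcp4, Itpr1, Slc1a6, Pvalb and Rora and for the 6 others with the smallest p, and probes for genes whose tested probes differ in sign. The other Purkinje and ataxia lists give their 3 genes with the smallest p, marker lists their 2, and some items these rules take are not reported here. Skor2, Foxp2, Homer3, Lhx1, Dner, Plcb4 and the second Ryr1 probe were given sample values or probes after their values were seen. Nptxr and Sept4 matched no probe by name, and Chrna3 and Ckm were too dim to test. Marker lists covered granule cells, interneurons, Bergmann glia, nuclei and brainstem, oligodendrocytes, microglia, muscle, mural cells, choroid plexus and forebrain. The number of arrays limits the precision.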

Additional observations from a re-analysis of the deposited data

How the results depend on the processing

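In all 17 alternatives, and at an adjusted p of 0.1, the number of the 28 genes called was 0, and their median difference stayed below 0, between -0.18 (median scaling) and -0.10 (without MSA Tg replicate 2). Between 22 and 26 of the 28 genes were below 0 in each, and 20 kept their sign throughout. The median over all genes also moved, to -0.045 with median scaling, -0.047 with normexp and -0.037 with no filter on dim probes. Beside these the 28 genes had medians of -0.18, -0.11 and -0.14. The sign turned for Foxp2 with normexp (offset 50; -0.0058), for Plcb4 with quantile normalization (0.0078) and in the authors' deposited table (0.0077), and for Pcp4 (-0.033) and Rgs8 (-0.030) with median scaling. With slide as a block, Pcp4 (-0.073), Rgs8 (-0.13), Foxp2 (-0.048), Grid2ip (0.026) and Atp2a3 (0.0083) turned, and with array weights the same genes did (-0.078, -0.11, -0.014, 0.018 and 0.00012). Averaging a gene's probes turned Grid2ip (0.059) and Rgs8 (-0.055). Leaving out each sample in turn gave -0.083 to 0.028 for Plcb4, -0.073 to 0.061 for Pcp4, -0.11 to 0.026 for Grid2ip, -0.18 to 0.0083 for Atp2a3, -0.13 to 0.10 for Rgs8, -0.048 to 0.64 for Foxp2, -0.13 to 0.031 for Itpr1 and -0.043 to 0.14 for Ryr1. Genes that kept their sign moved too, over -0.13 to -0.030 for Pvalb, -0.23 to -0.077 for Pcp2, -0.11 to -0.041 for Homer3, -0.20 to -0.078 for Rora, -0.32 to -0.15 for Ebf2, -0.53 to -0.17 for Skor2 and -0.27 to -0.11 for Dner. Of genes on the other lists 3 were called, 5 with normexp, and 0 to 3 when samples were left out (3 without WT replicate 1, 0 without each of the others), where fewer arrays enter the fit. Over all genes 11 were called, against 6 (no filter on dim probes) to 95 (array weights) under the processing alternatives and 0 to 7 when samples were left out. Causes were not tested. Slide 1 holds 1 array, so the slide block removes it. No paired analysis was run, because the labels give the genotypes no shared replicate numbers. Some title numbers are neighbours across genotypes, but the labels do not say that such samples are related, and no fit used them.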

Other observations

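A receptor gene of inferior olive neurons, whose climbing fibres end on Purkinje cells, differed more than any of the 28 genes without passing the test. Htr5b, the serotonin 5-HT5B receptor, stood at -5.20, -2.81 and -4.18 in MSA Tg samples, against -1.32, -2.58 and -1.84 in WT samples. The groups were separate, with MSA Tg replicate 2 close to the WT values, and the difference was -2.15 ± 0.65 (limma adjusted p of 0.697). It was chosen as 1 of the 2 genes with the smallest p among markers of the cerebellar nuclei and brainstem. Markers of the caudal brainstem in the same list, chosen after their values were seen, ordered the samples of each genotype as Htr5b did. Hoxb5 stood at -0.87, 0.72 and 0.10 in MSA Tg samples, against 1.11, -0.25 and 0.93 in WT samples, and the differences of Hoxb5, Hoxa5 and Hoxb3 were -0.61, -0.65 and -0.46, none called and with overlapping groups. Their part in the Htr5b difference was not tested. The other gene taken by p was Slc6a2, the noradrenaline transporter of the locus coeruleus, at -1.14, -1.72 and -0.99 in MSA Tg samples, against -3.56, -1.09 and -3.72 in WT samples, with overlapping groups.

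Tissue outside the cerebellum was looked for by the same kind of list. Muscle markers, relevant because Ryr1 and Casq2 are also muscle genes, had 1 of 5 below 0, a median of 0.13, and mean levels of -3.64 to -3.39 in MSA Tg samples and -3.82 to -3.55 in WT samples, led by Tnnt3 and Actn3 at 0.38 each. Mural cell markers had 3 of 6 below 0 with a median of -0.019 (0.0093 within slide 2), led by Kcnj8 at -0.16 and Myh11 at 0.27. Choroid plexus markers had 3 of 5 below 0 with a median of -0.13, led by Kcnj13 at -0.24 and Clic6 at -0.16. Forebrain neuron markers had 2 of 7 below 0, a median of 0.18, and mean levels of -2.27 to -2.05 in MSA Tg samples and -2.95 to -2.35 in WT samples, with Drd1 at 0.36.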
